A study of Mus musculus with 12 samples.

Results

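Forkhead transcription factors, some of them known to hold lymphocytes in a resting state, were followed through 4 stages of T cell development in the mouse thymus. The members were Foxo1, Foxo3 and Foxo4 of the FOXO class, Foxp1 and Foxp4 of the FOXP class, and Foxj1. They were taken as the probe sets whose only gene symbol in the platform annotation was 1 of these 6 names. This gave 21 probe sets of the 45037 tested, of which 34945 carry 1 symbol and stand for 18193 genes. Foxo1 has 4 probe sets, Foxo3 has 3, Foxo4 has 2, Foxp1 has 8, Foxp4 has 3 and Foxj1 has 1. Total RNA came from untreated C57BL/6 thymocytes directly after sorting, with 3 Affymetrix arrays per subset. DP cells, the double-positive stage, were sorted as CD4+CD8a+, and DN cells, the double-negative stage before it, as CD4-CD8a-TCRb-. Of the single-positive subsets, which come after DP, the gate of CD4SP was CD4+CD8a-TCRbhi. The gate of CD8SP was CD4-CD8a+TCRbhi. All groups share the strain and carry no allele or agent according to the labels. Ages, sexes and the number of mice behind an array are not given there, so p-values measure the spread between arrays, which may be technical.

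FOXO factors are controlled mainly by their place in the cell. The kinase AKT, activated through PI3K by antigen and cytokine receptors, phosphorylates them and keeps them out of the nucleus, and when that signal is low they enter the nucleus and activate genes of cell cycle arrest, homing and survival. In T cells FOXO1 is known to switch on Il7r, Klf2 and Ccr7, while FOXP1 is known to keep naive T cells quiescent and to oppose FOXO1 at Il7r. FOXJ1, best known as the master factor of motile cilia, restrains NF-κB activity in mouse T cells. Messenger RNA levels on these arrays say nothing of where the proteins were.

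The promoters are shown for the members whose values moved most together, Foxo1 and Foxp1, and for those listed FOXO target genes whose window holds the 7-base forkhead core. Each sequence is the RefSeq window of GRCm38.p6 from 250 bases before to 50 bases after an annotated start, read 5′ to 3′ on the strand of the gene. Foxo1 has 1 window, chr3:52268087-52268386 on the plus strand, in which neither GTAAACA nor ATAAACA occurs on either strand. Its capitals mark the GC box GGGCGG in either orientation, some copies overlapping. Foxp1 has 3 windows on the minus strand, of which the most upstream, chr6:99520944-99521243, and the next, chr6:99266466-99266765, hold ATAAACA or its reverse TGTTTAT, in capitals. The third Foxp1 window holds neither.
Foxo1: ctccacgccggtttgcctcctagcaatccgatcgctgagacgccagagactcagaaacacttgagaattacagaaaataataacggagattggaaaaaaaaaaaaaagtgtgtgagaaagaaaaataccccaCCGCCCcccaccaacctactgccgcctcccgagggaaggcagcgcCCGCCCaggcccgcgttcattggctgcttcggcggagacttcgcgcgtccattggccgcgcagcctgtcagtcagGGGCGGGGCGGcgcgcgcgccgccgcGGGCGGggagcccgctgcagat
Foxp1 first start: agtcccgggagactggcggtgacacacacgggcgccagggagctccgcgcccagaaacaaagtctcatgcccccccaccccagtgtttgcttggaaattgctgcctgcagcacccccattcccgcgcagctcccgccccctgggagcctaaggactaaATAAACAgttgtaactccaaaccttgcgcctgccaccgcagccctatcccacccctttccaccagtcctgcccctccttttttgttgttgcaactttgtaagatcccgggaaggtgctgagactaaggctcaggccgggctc
Foxp1 second start: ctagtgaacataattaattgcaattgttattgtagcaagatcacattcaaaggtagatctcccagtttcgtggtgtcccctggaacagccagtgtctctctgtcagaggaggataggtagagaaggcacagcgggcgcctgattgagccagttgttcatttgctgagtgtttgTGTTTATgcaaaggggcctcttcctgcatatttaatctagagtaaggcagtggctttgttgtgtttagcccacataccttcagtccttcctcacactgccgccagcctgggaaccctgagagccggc

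Among listed FOXO targets, GTAAACA or its reverse TGTTTAC occurs in Txnip (chr3:96557707-96558006), in the first of the 2 Sesn1 windows (chr10:41810324-41810623) and in the first of the 2 Bcl2l11 windows (chr2:128125788-128126087), all on the plus strand and again in capitals. Txnip encodes an inhibitor of glucose uptake, Sesn1 a sestrin that restrains mTORC1, and Bcl2l11 the death factor BIM.
Txnip: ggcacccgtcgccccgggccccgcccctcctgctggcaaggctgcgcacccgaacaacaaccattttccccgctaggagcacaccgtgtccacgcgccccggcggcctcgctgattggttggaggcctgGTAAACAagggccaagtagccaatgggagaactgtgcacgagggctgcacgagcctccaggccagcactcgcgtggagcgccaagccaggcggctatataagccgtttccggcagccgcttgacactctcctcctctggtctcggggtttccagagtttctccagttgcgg
Sesn1 first start: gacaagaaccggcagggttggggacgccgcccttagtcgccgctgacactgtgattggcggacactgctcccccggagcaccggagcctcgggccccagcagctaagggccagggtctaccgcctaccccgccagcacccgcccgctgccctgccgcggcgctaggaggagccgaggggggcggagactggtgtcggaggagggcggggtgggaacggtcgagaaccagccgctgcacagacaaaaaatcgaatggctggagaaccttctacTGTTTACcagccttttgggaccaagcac
Bcl2l11 first start: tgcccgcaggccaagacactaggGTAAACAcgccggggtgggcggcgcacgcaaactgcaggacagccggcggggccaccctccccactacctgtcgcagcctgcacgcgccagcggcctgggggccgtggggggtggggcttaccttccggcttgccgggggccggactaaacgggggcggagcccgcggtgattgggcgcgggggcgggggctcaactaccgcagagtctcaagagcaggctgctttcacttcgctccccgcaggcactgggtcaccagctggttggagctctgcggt

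That motif occurs in 3 of the 24 listed targets with a window and in 0 of the 4 members with one (Foxo1, Foxo3, Foxp1 and Foxp4), against 4.05% of the 27025 gene symbols in the promoter table. ATAAACA occurs in 1 of the 4 members (Foxp1) and in 2 of the 24 targets (Klf4 and Rag1), against 5.28% of symbols. The GC box occurs in all 4 members with a window and in 19 of the 24 targets, against 38.2% of symbols. Matches are descriptions of letters in these windows.

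The deposited values are logarithms, read here as log2, from which each probe set's DP mean has been subtracted. DP therefore lies at 0 throughout, and the levels of different genes cannot be compared. The sort genes fitted the labels: Cd4 stood at -8.90 ± 0.45 in CD8SP, -5.22 ± 1.31 in DN and -0.64 ± 0.12 in CD4SP, and Cd8a at -6.53 ± 0.26 in CD4SP, -3.72 ± 1.0 in DN and -0.33 ± 0.12 in CD8SP (mean ± SD, n = 3). Marker lists of other cell types mostly had higher mean levels on DN arrays than on the rest. The mean level of 13 myeloid markers was 1.60 to 2.81 on DN arrays and -0.20 to 0.14 on all others, led by S100a9 and S100a8. The 9 NK and innate lymphoid markers lay at 1.04 to 2.14 on DN arrays, 1.08 to 1.21 on CD8SP arrays and -0.09 to 0.11 on the rest, and 9 B cell markers at 0.39 to 1.66 on DN arrays and -0.61 to 0.12 on the rest. The 4 γδ T cell markers measured lay at 2.35 to 2.92 on DN arrays and -0.15 to 0.58 on the rest. Called lower in DP than in DN were 6 myeloid, 7 NK and innate lymphoid, 3 B cell and 4 γδ markers, against 18.8% of all genes. Called higher than in DN were 1 myeloid and 1 B cell marker in each single-positive subset, and 3 NK and innate lymphoid markers in CD8SP. The B cell and γδ lists share Blk. The part of other cell types in the differences from DN was not tested. CD8SP replicate 1 stood apart in its hybridisation controls, at 0.84 against -0.16 to 0.08 on the other 11 arrays, and in its array weight of 0.30. Its Gapdh control difference, 3′ minus 5′, was also the highest, at 0.37 against -0.10 to 0.23 on the others. DN replicate 1 had the next lowest weight, 0.60, with 0.75 to 1.69 on the rest. In bulk samples like these, fewer cells of a type and less RNA per cell cannot be told apart.

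The 6 genes took different courses. Foxo1 and Foxp1 were highest in the single-positive subsets, Foxo3 and 1 probe set of Foxo4 were highest in DP, Foxj1 was lowest in DP, and Foxp4 was called nowhere. A probe set was called at an adjusted p under 0.05 in limma over all 45037. In DP relative to DN 11 of the 21 were called, where 35.1% of all probe sets were: 10 were higher, against 19.7% of all, and 1 was lower, against 15.4%. On 12 the groups did not overlap, where 49.2% of all did not. The median difference was 0.37 over the members and 0.09 over all probe sets. The number called was 4 without DN replicate 1, 6 without DP replicate 2 and 7 without DP replicate 3. Probe sets of 1 gene are repeat measures of it. By gene mean 2 of the 6 members were higher and 1 was lower, against 17.8% and 18.8% of all genes.

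In CD4SP relative to DP 14 of the 21 were called, where 28.3% of all were: 12 were higher, against 13.6% of all, and 2 were lower, against 14.7%. The 12 were 3 of Foxo1, all 8 of Foxp1 and Foxj1, the 2 that fell were 1 of Foxo3 and 1 of Foxo4, and the median was 0.51 against 0.02 over all. By gene mean 3 of the 6 members were higher and 1 was lower, against 16.4% and 16.2% of all genes.

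In CD8SP relative to DP 13 of the 21 were called, where 36% of all were: 10 were higher, against 15.1% of all, and 3 were lower, against 20.9%. The median was 0.38 against -0.04 over all. The 10 were 3 of Foxo1, 6 of Foxp1 and Foxj1, and the 3 that fell were 2 of Foxo3 and 1 of Foxo4. Leaving out CD8SP replicate 1 again gave 13 calls. By gene mean 3 of the 6 members were higher and 1 was lower, against 18.2% and 20.9% of all genes. Relative to DN, CD4SP had 11 called, where 41.2% of all were, with 11 higher against 23.3% and 0 lower against 18% (0 also at an unadjusted limma p under 0.05). All were of 2 genes, 3 of Foxo1 and 8 of Foxp1. By gene mean 2 of the 6 members were called, where 43.7% of all genes were. The median over the gene means was 0.14 against 0.07 over all genes. CD8SP had 13 called relative to DN, where 38.3% of all were, with 12 higher against 18.4% and 1 lower against 19.9%. Here the median over the gene means was 0.25 against 0.03 over all genes. In CD4SP relative to CD8SP the members called were 2, both of Foxp1 and both higher, where 11.4% of all were called, 7.58% higher and 3.78% lower.

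**Figure D1:**
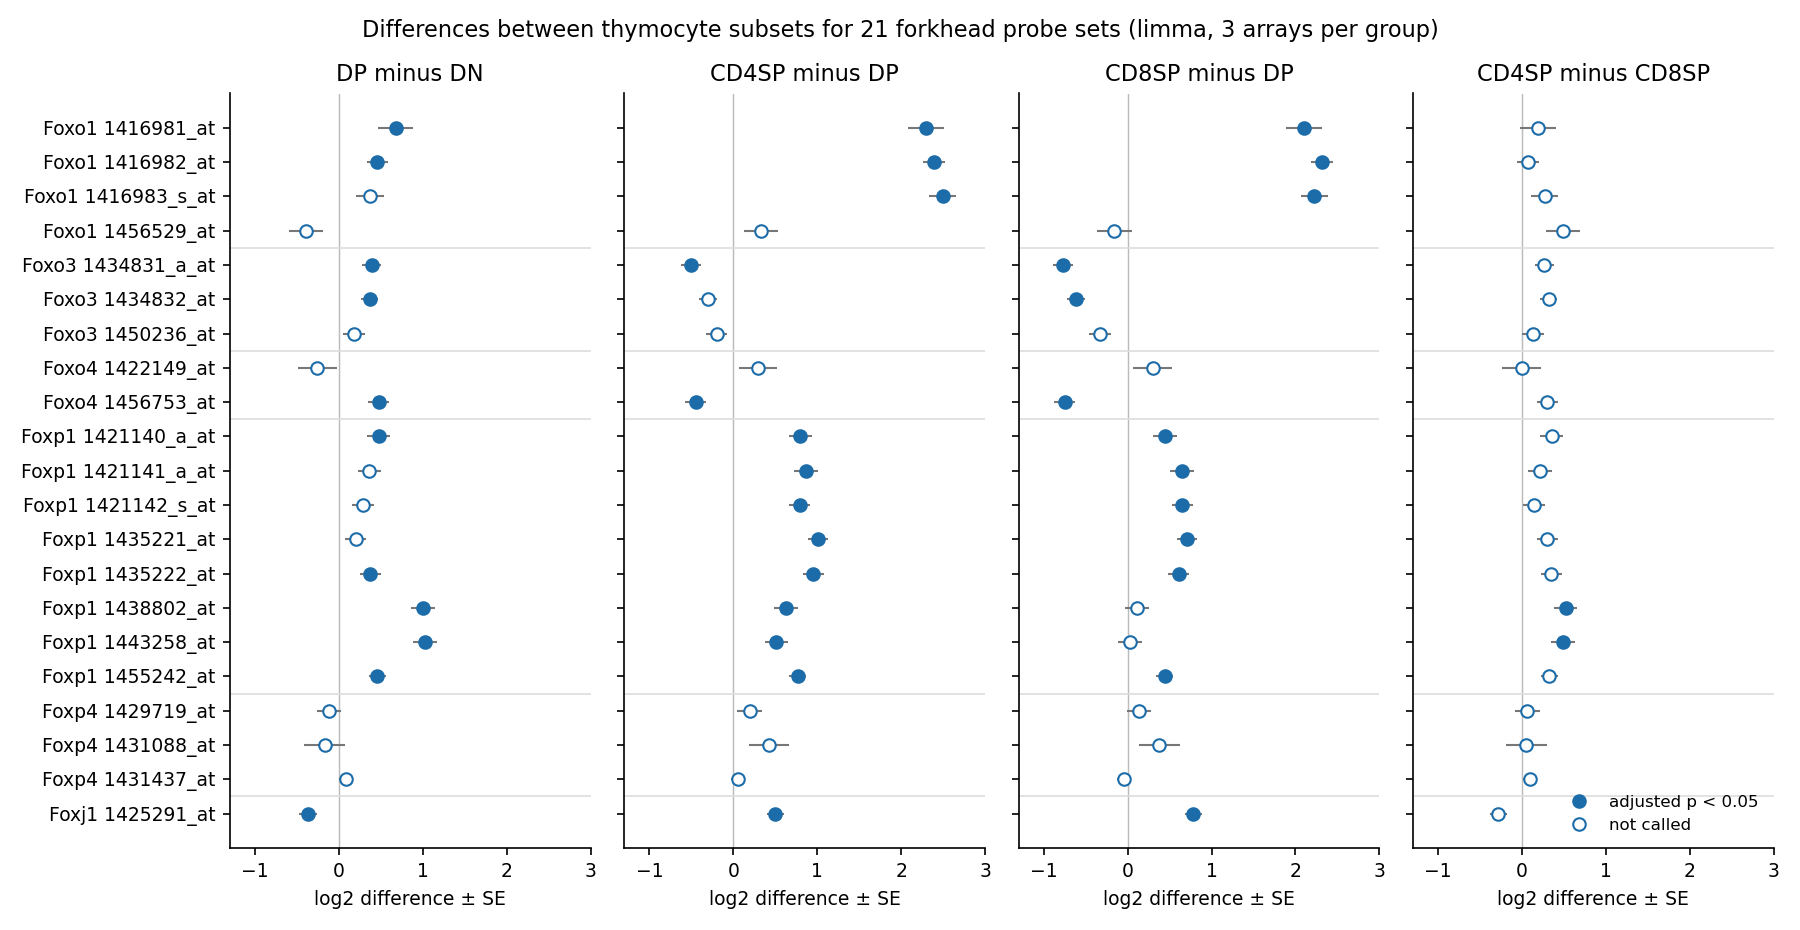
Each row is 1 of the 21 probe sets and each panel 1 comparison. Points give the log2 difference and bars ± 1 SE from limma (n = 3 arrays in each subset), filled where the adjusted p was under 0.05. In both comparisons of single-positive with DP cells Foxp1 and 3 Foxo1 probe sets lie to the right of 0, Foxo3 and 1 Foxo4 probe set to the left, and the Foxp4 points are all open. The fourth Foxo1 probe set, 1456529_at, lies at -0.16 in CD8SP minus DP.

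Foxo1, the FOXO factor that dominates in T cells, was about 4 to 6 times higher in both single-positive subsets than in DP cells on 3 of its 4 probe sets, and only slightly higher in DP than in DN cells. On probe set 1416982_at the CD4SP arrays read 2.25, 2.34 and 2.58 and the CD8SP arrays 2.23, 2.37 and 2.35, against 0.02, -0.01 and -0.01 on the DP arrays and -0.69, -0.20 and -0.49 on the DN arrays. Both single-positive groups lay clear of DP and DN on every array, they overlapped each other, and DN lay below DP. CD4SP exceeded DP by 2.39 ± 0.13 (SE), a 5.24-fold difference (limma, adjusted p = 2.90e-07), and CD8SP exceeded DP by 2.32 ± 0.13 (adjusted p = 3.34e-07).

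Probe sets 1416981_at and 1416983_s_at, designed on the same target sequence as 1416982_at, gave the same picture, with correlations of 0.990 to 0.995 between the 3 over the 12 arrays. Over these 3 probe sets the excess of CD4SP over DP was 2.29 to 2.49 (4.91-fold to 5.63-fold) and that of CD8SP over DP 2.10 to 2.32 (4.29-fold to 4.98-fold). CD4SP exceeded CD8SP by 0.07 to 0.27, which limma did not call on any of the 3 (adjusted p = 0.344 to 0.777). Against DN the excess was 2.85 to 2.97 in CD4SP and 2.60 to 2.78 in CD8SP.

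The step from DN to DP was smaller and less secure. DP exceeded DN by 0.68 ± 0.21 on 1416981_at (adjusted p = 0.0290), by 0.46 ± 0.13 on 1416982_at (adjusted p = 0.0177) and by 0.37 ± 0.16 on 1416983_s_at, where it was not called (adjusted p = 0.105). DN replicate 1 had the lowest value of the 12 arrays on all 3. The call on 1416982_at was lost without DN replicate 1, DN replicate 3 or DP replicate 1. The call on 1416981_at was lost without DN replicate 1, DN replicate 3, DP replicate 2 or DP replicate 3 and with only the 6 arrays compared (adjusted p = 0.00209 to 0.103 over 20 alternatives). With the arrays numbered 1 set against the rest as a factor, the excess on 1416983_s_at was called (adjusted p = 0.0367), and on 1416981_at replicate 1 was the lowest array of every group.

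The fourth Foxo1 probe set, 1456529_at, rests on another target sequence and did not follow the others. It read 0.45, 0.46 and 0.08 in CD4SP and -0.13, -0.10 and -0.25 in CD8SP, against 0.42, 0.07 and -0.49 in DP and 0.28, 0.61 and 0.28 in DN. The groups overlapped except that CD8SP lay below both CD4SP and DN, and limma called none of its 6 comparisons (lowest adjusted p = 0.0573, CD8SP minus DN), although 2 had an unadjusted p under 0.05. Without DP replicate 1 it was called lower in DP than in DN (adjusted p = 0.0376). Its correlation with the other 3 was -0.17 to -0.25. A Foxo1 value averaged over all 4 probe sets therefore gives smaller differences: 1.88 ± 0.13 for CD4SP minus DP and 1.62 ± 0.13 for CD8SP minus DP.

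**Figure D2:**
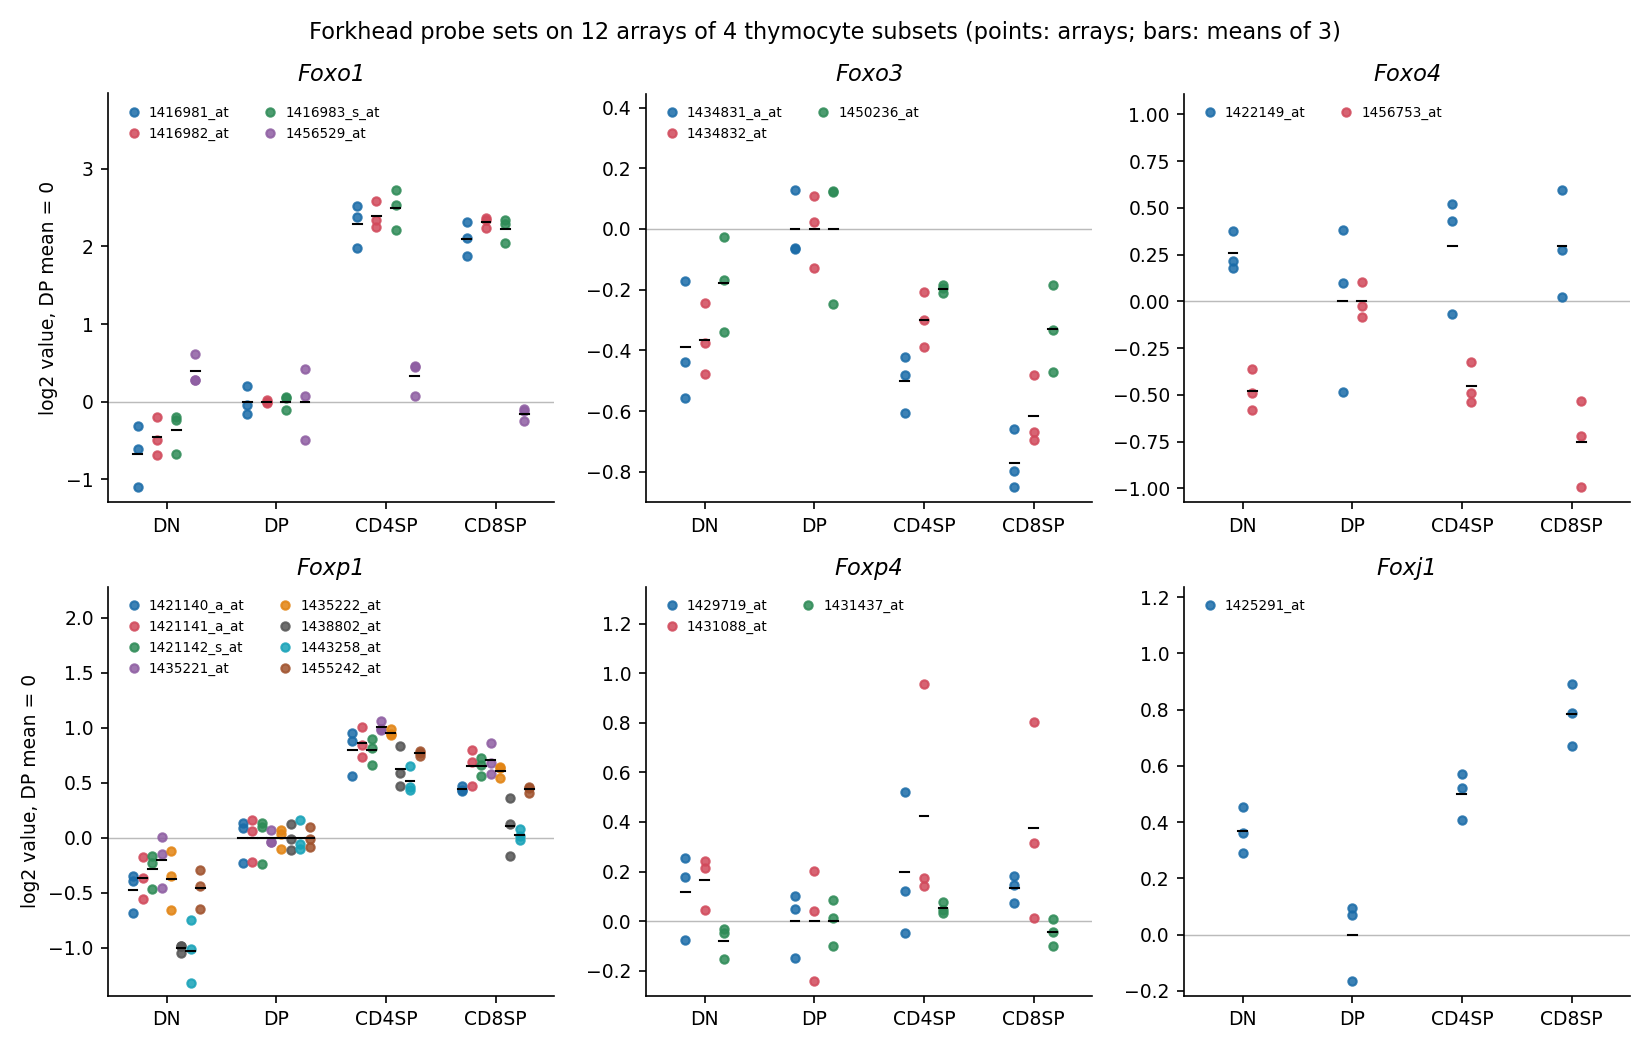
Each point is 1 array, each colour 1 probe set and each short bar the mean of 3 arrays. The vertical axis is the log2 value with the DP mean at 0, on its own scale for each gene. Foxo1 is high in both single-positive subsets on 3 of 4 probe sets, the Foxp1 means climb through DN, DP and the single-positive subsets, and Foxo3 peaks in DP where Foxj1 is lowest.

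Foxo3 ran the other way after the DP stage. This FOXO factor, known in mouse lymphocytes for its restraint of expansion and its part in cell death, was highest in DP on all 3 of its probe sets. Probe set 1434831_a_at read -0.42, -0.48 and -0.61 in CD4SP and -0.66, -0.80 and -0.85 in CD8SP, against 0.13, -0.06 and -0.06 in DP and -0.56, -0.44 and -0.17 in DN. All DP arrays lay above every array of the other groups. It fell by 0.50 ± 0.12 in CD4SP relative to DP (adjusted p = 0.00774, 1.42-fold) and by 0.77 ± 0.12 in CD8SP relative to DP (adjusted p = 4.07e-04, 1.71-fold). DP exceeded DN by 0.39 ± 0.12 (adjusted p = 0.0238), a call lost without DN replicate 1, DN replicate 2 or DP replicate 1.

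Probe set 1434832_at, on the same target sequence, fell by 0.62 ± 0.11 in CD8SP relative to DP (adjusted p = 9.31e-04) and differed by -0.30 ± 0.11 in CD4SP (adjusted p = 0.0566). DP exceeded DN on it by 0.37 ± 0.11 (adjusted p = 0.0198), a call lost without DN replicate 1, DN replicate 2, DP replicate 1 or DP replicate 3. The third, 1450236_at, had differences from DP of -0.20 ± 0.13 in CD4SP and -0.33 ± 0.13 in CD8SP, neither called. As a mean over its probe sets Foxo3 fell by 0.57 ± 0.09 in CD8SP relative to DP (adjusted p = 5.94e-04). The call was lost with the probe set of highest mean standing for the gene (-0.33, adjusted p = 0.0657). Since values are relative to DP, that rule favours the probe set with the smallest fall. The gene mean of Foxo3 fell by 0.33 ± 0.09 in CD4SP relative to DP (adjusted p = 0.0183). The CD4SP fall was lost without DP replicate 1, DP replicate 3, CD4SP replicate 2 or CD4SP replicate 3 (adjusted p = 0.00772 to 0.282 over 22 alternatives).

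Foxo4 was split between its 2 probe sets, which rest on different target sequences and had a correlation of -0.16. Probe set 1456753_at read -0.32, -0.49 and -0.54 in CD4SP and -0.99, -0.72 and -0.53 in CD8SP, against -0.08, 0.11 and -0.02 in DP and -0.49, -0.58 and -0.36 in DN. DP stood above the other 3 groups on every array, the same shape as Foxo3. It fell by 0.75 ± 0.13 in CD8SP relative to DP (adjusted p = 8.09e-04) and by 0.45 ± 0.13 in CD4SP relative to DP (adjusted p = 0.0204). The CD4SP fall was lost without DP replicate 2, DP replicate 3, CD4SP replicate 2 or CD4SP replicate 3. DP exceeded DN by 0.48 ± 0.13 (adjusted p = 0.0125), a call lost without DP replicate 2.

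The other Foxo4 probe set, 1422149_at, ranged from -0.48 to 0.60 over all arrays with overlapping groups and no call, and its spread within groups was larger than that of 80.4% of probe sets. The mean of both was called in no comparison. With the probe set of smallest spread standing for the gene, Foxo4 was called in DP minus DN, CD4SP minus DP and CD8SP minus DP.

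Foxp1 climbed in 2 steps, lowest in DN, higher in DP and highest in the single-positive subsets, and its CD4SP level was the top of the order. As a mean over 8 probe sets it read 0.89, 0.71 and 0.78 in CD4SP and 0.45, 0.42 and 0.50 in CD8SP, against -0.14, 0.06 and 0.08 in DP and -0.68, -0.38 and -0.51 in DN. No array of any group overlapped another group. CD4SP exceeded DP by 0.79 ± 0.10 (limma over genes, adjusted p = 1.02e-04, 1.73-fold), CD8SP exceeded DP by 0.46 ± 0.10 (adjusted p = 0.00373, 1.37-fold) and DP exceeded DN by 0.52 ± 0.10 (adjusted p = 0.00170, 1.44-fold). With the probe set of highest mean standing for the gene, the excess of DP over DN was 0.20 and not called (adjusted p = 0.249). Since values are relative to DP, that rule favours a small excess of DP over DN. On the gene mean CD4SP stood 2.49-fold and CD8SP 1.97-fold above DN.

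The 8 probe sets rest on 4 target sequences and fell into a group of 6 and a pair. In the 6, namely 1421140_a_at, 1421141_a_at, 1421142_s_at, 1435221_at, 1435222_at and 1455242_at, CD4SP exceeded DP by 0.77 to 1.01 and CD8SP exceeded DP by 0.44 to 0.71, called in all 6 both times. The CD8SP call on 1421140_a_at was lost without DP replicate 1 or any 1 of the CD8SP replicates. DP exceeded DN on the 6 by 0.20 to 0.47, called in 3, namely 1421140_a_at, 1435222_at and 1455242_at. That on 1435222_at was lost in 11 of 20 alternatives, among them those without DN replicate 1, DN replicate 3, DP replicate 2, DP replicate 3 or any 1 of the CD4SP replicates. That on 1421140_a_at was lost in 6, among them those without DN replicate 1, DP replicate 2 or DP replicate 3, while that on 1455242_at was lost in 0. In the pair, 1438802_at and 1443258_at, the order of the steps was turned: DP exceeded DN by 1.0 and 1.02, while CD8SP exceeded DP by 0.11 and 0.03, neither called (adjusted p = 0.593 and 0.899).

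On 1438802_at the CD8SP arrays read 0.36, -0.16 and 0.13, against -0.11, -0.01 and 0.13 in DP and -0.98, -0.99 and -1.04 in DN, while CD4SP read 0.83, 0.59 and 0.47. On 1443258_at CD8SP read 0.02, -0.02 and 0.08, against -0.10, -0.06 and 0.16 in DP and -1.01, -0.74 and -1.31 in DN, while CD4SP read 0.65, 0.46 and 0.43. CD8SP thus overlapped DP on both, and CD4SP lay above all other groups. The excess of CD4SP over DP on 1443258_at (0.51) was not called without DP replicate 1, DP replicate 2 or CD4SP replicate 1. The pair was separated from the 6 after their values were seen, so the difference between the sets is a description. Where each probe set lies along the Foxp1 transcripts was not analysed here.

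**Figure D3:**
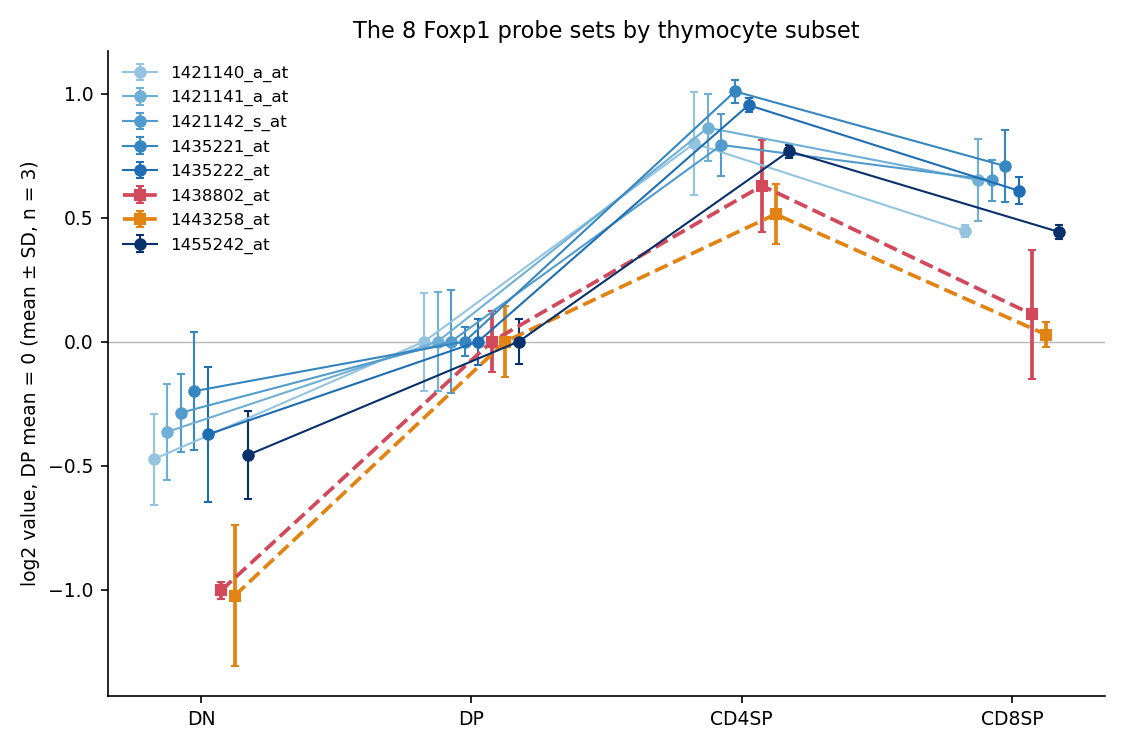
The 8 Foxp1 probe sets are drawn as mean ± SD of 3 arrays in each subset, on a log2 axis with the DP mean at 0, and lines join the subsets only to guide the eye. The 2 dashed probe sets, 1438802_at and 1443258_at, are lowest in DN (-1.0 and -1.02) and near 0 in CD8SP, where the other 6 lie between 0.44 and 0.71.

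Foxp4, a FOXP factor that mouse T cells can develop without, gave no call on any of its 3 probe sets in limma, and at an unadjusted p under 0.05 the count was also 0 in all 6 comparisons. Over all 12 arrays 1431437_at stayed between -0.15 and 0.09 with a spread within groups among the lowest 1.5% of probe sets, and its differences from DP were 0.05 ± 0.08 in CD4SP and -0.05 ± 0.08 in CD8SP. On 1431088_at, CD4SP replicate 1 at 0.96 and CD8SP replicate 1 at 0.80 stood above all other arrays, which reached 0.31 at most. On 1429719_at the differences from DP were 0.20 ± 0.15 in CD4SP and 0.13 ± 0.15 in CD8SP.

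Foxj1 had the opposite course to Foxo3: lowest in DP and highest in CD8SP. Its 1 probe set, 1425291_at, read 0.41, 0.52 and 0.57 in CD4SP and 0.79, 0.67 and 0.89 in CD8SP, against 0.10, -0.16 and 0.07 in DP and 0.45, 0.29 and 0.36 in DN. DP lay below every other array, CD8SP lay above every other array, and CD4SP overlapped DN. Foxj1 rose by 0.78 ± 0.10 in CD8SP relative to DP (adjusted p = 1.53e-04, 1.72-fold) and by 0.50 ± 0.10 in CD4SP relative to DP (adjusted p = 0.00387, 1.41-fold). It fell by 0.37 ± 0.10 in DP relative to DN (adjusted p = 0.0171), a call lost without DN replicate 1 or DP replicate 2. CD4SP minus CD8SP was -0.28 ± 0.10, not called (adjusted p = 0.108) although the groups did not overlap. Some other forkhead genes, among them Foxd1, Foxd3 and Foxq1, also had their lowest mean in DP and their highest in CD8SP.

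Few members were called between the single-positive subsets, although the median of CD4SP minus CD8SP was 0.27 over the member probe sets and 0.05 over all. On the Foxp1 probe set 1438802_at CD4SP exceeded CD8SP by 0.52 ± 0.14 (adjusted p = 0.0383) and on 1443258_at by 0.49 ± 0.14 (adjusted p = 0.0498), and as a gene mean by 0.34 ± 0.10 (adjusted p = 0.0496), where 12.7% of genes were called, 7.78% higher and 4.91% lower. Since DP cancels, these also test whether the change from DP differed between the 2 lineages. The gene call was lost in 16 of 22 alternatives (adjusted p = 0.0235 to 0.163), among them those without CD4SP replicate 1, 2 or 3. The call on 1438802_at was lost in 12 of 20 and that on 1443258_at in 16 of 20. For the other members the gene mean of CD4SP minus CD8SP was 0.26 ± 0.13 for Foxo1, 0.24 ± 0.09 for Foxo3, 0.15 ± 0.16 for Foxo4 and 0.07 ± 0.12 for Foxp4, none called.

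In order of gene means, Foxo1 ran CD4SP, CD8SP, DP, DN from high to low, with a called gap only between CD8SP and DP. Foxp1 had the same order with every gap called. Foxo3 ran DP, DN, CD4SP, CD8SP with a called gap only between DP and DN, and Foxj1 ran CD8SP, CD4SP, DN, DP with a called gap only between DN and DP. The Foxo3 gap was lost in 8 of 22 alternatives, among them those without DN replicate 1, DP replicate 1 or DP replicate 3, and the Foxj1 gap without DP replicate 2. The gap between CD4SP and DN was called in neither, where 43.7% of all genes were called. Over the 12 arrays the gene means of Foxo1 and Foxp1 had a correlation of 0.93, Foxo3 and Foxj1 of -0.85, and Foxo1 and Foxo3 of -0.56. These points share arrays and groups and describe the group pattern.

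Genes whose profile over the 12 arrays was most like a member's were taken by Pearson correlation. For Foxo1 they were Rapgef6 (0.99), an exchange factor for Rap GTPases, Sesn3 (0.99), a sestrin, and Irf2bpl (0.99), among 548 genes above 0.9. For Foxp1 they were Egr1 (0.99), an early response factor of antigen receptor signalling, Itgb2 (0.99), the β chain of the integrin LFA-1, and Tnik (0.99), a kinase of the Wnt pathway, among 395 genes. Egr1 is also among 8 stress and dissociation genes, whose mean level was -0.19 to 0.75 in CD4SP, -0.10 to 0.47 in CD8SP, -0.12 to 0.16 in DP and 0.05 to 0.53 in DN. For Foxo3 they were Prkcd (0.96), a protein kinase C, Hnrnpf (0.95), an RNA binding protein, and Zdhhc5 (0.94), a palmitoyltransferase, among 60 genes, and for Foxj1 they were Aldoart2 (0.96), Cpvl (0.96) and Kcnk15 (0.96), among 93.

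The listed FOXO targets split at the single-positive stage. Of 29 measured, 7 rose, 13 fell and 9 were not called in CD4SP relative to DP, where 32.7% of genes were called, 16.4% higher and 16.2% lower. In CD8SP relative to DP 7 rose, 14 fell and 8 were not called, where 39% of genes were called, 18.2% higher and 20.9% lower. The median difference was -0.15 in CD4SP and -0.33 in CD8SP, against 0.04 and 0.00 over all genes. The recombinase genes Rag1 and Rag2 had the largest falls: Rag1 fell by 9.24 ± 0.12 and Rag2 fell by 8.95 ± 0.23 in CD4SP. The repressor Bcl6 fell by 2.29 ± 0.12 in CD4SP and fell by 3.07 ± 0.12 in CD8SP. Il7r, the receptor chain for interleukin 7, rose by 7.20 ± 0.36 in CD4SP, and Klf2, which drives exit from the thymus, rose by 5.56 ± 0.31 in CD8SP (adjusted p = 2.58e-07). The others that rose in both, named after their values were seen, were Sesn3, S1pr1, Ccr7, Ctla4 and Klf4. As a gene mean Sesn3 rose by 2.59 ± 0.15 in CD4SP and 2.18 ± 0.15 in CD8SP. The Foxo1 gene mean rose by 1.88 and 1.62, and the 3 Foxo1 probe sets on 1 target sequence by 2.29 to 2.49 and 2.10 to 2.32.

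None of the 3 targets with GTAAACA or its reverse in the promoters printed above was called higher in a single-positive subset than in DP. Txnip read 0.04, -0.15 and -0.07 in CD4SP and -0.47, -0.46 and -0.46 in CD8SP, against 0.49, -0.25 and -0.25 in DP and -1.73, -2.20 and -2.06 in DN. It rose by 2.00 ± 0.19 in DP relative to DN (adjusted p = 1.34e-05) and was not called in either single-positive subset relative to DP. Sesn1 rose by 0.98 ± 0.10 in DP relative to DN, fell by 0.40 ± 0.10 in CD4SP relative to DP and fell by 0.51 ± 0.10 in CD8SP relative to DP. Bcl2l11 was called only in CD4SP relative to CD8SP, by 0.58 ± 0.16 (adjusted p = 0.0387), among the 4 comparisons described for the lists. Outside those 4, CD4SP exceeded DN for Txnip (1.94 ± 0.19), Sesn1 (0.58 ± 0.10) and Bcl2l11 (0.53 ± 0.16), all called, as it did for Foxo1. In CD8SP relative to DN Txnip and Sesn1 were called higher and Bcl2l11 was not called. Of the targets with ATAAACA, Klf4 rose in both single-positive subsets relative to DP and Rag1 fell in both. A link of motif and course was not tested.

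**Figure D4:**
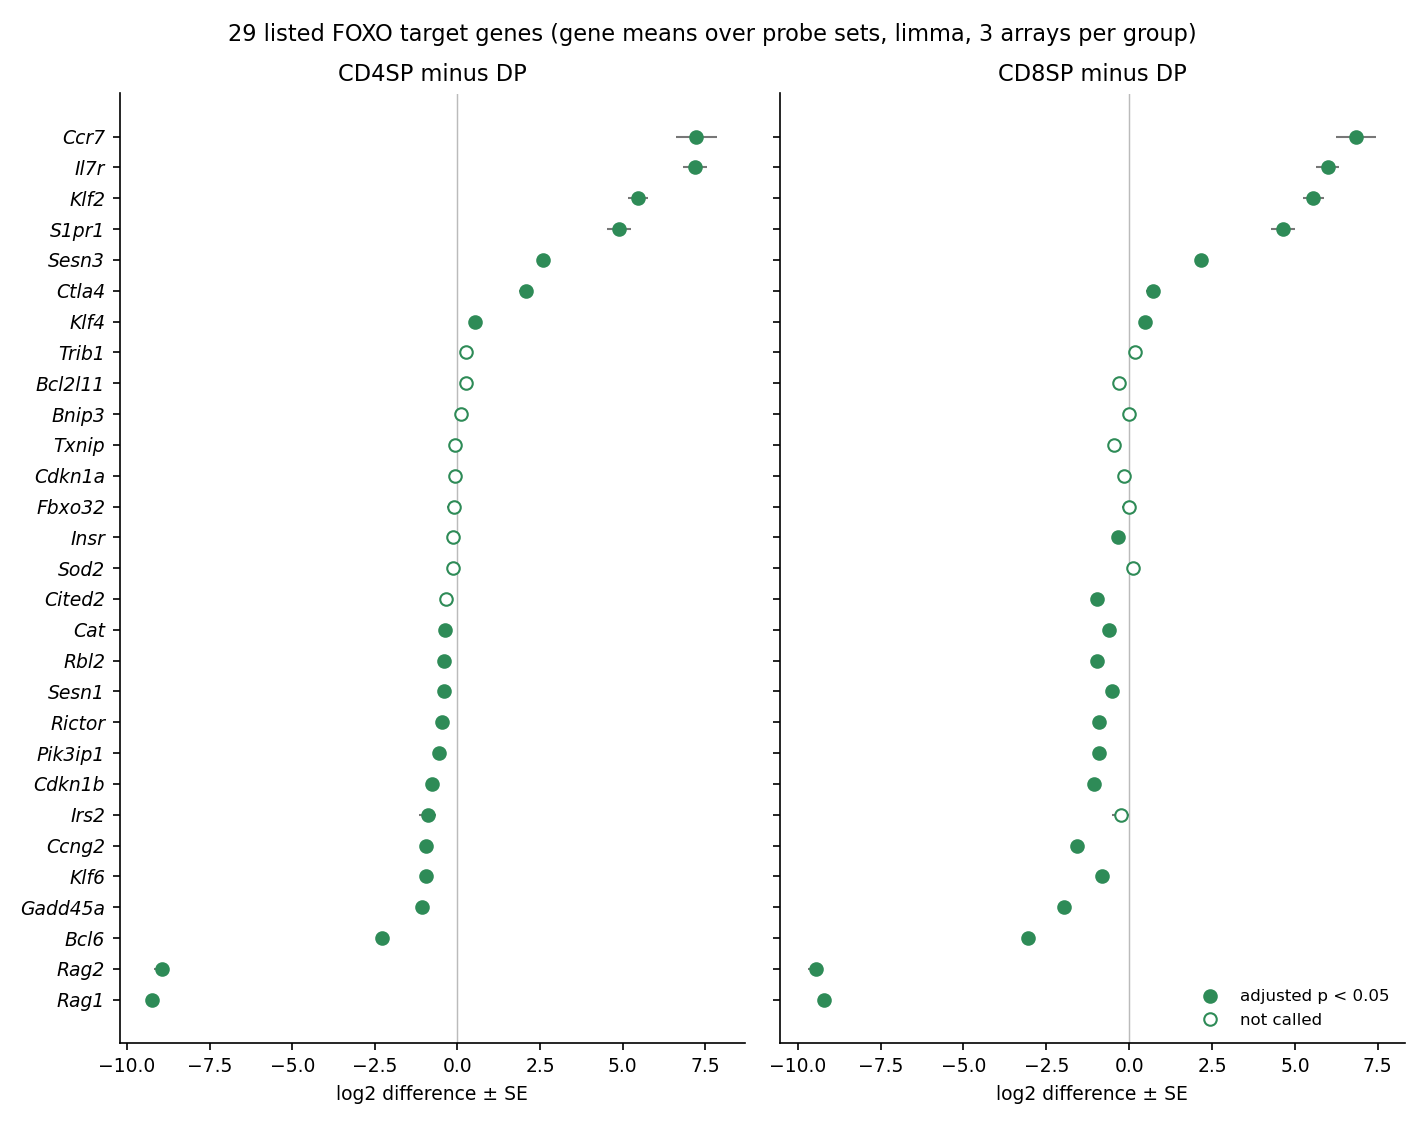
The 29 listed FOXO target genes are ordered by their CD4SP minus DP difference. Points give log2 differences of gene means, bars ± 1 SE from limma (n = 3 arrays in each subset), and filled points an adjusted p under 0.05. Ccr7, Il7r, Klf2, S1pr1 and Sesn3 lie at the right end in both panels, Rag1 and Rag2 near -9, and most of the rest just left of 0.

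In DP relative to DN, where 36.6% of genes were called, 17.8% higher and 18.8% lower, 15 of the 29 targets rose, 5 fell and 9 were not called, with a median of 0.86 against 0.04 over all genes. Those with the lowest adjusted p were Bcl6 (2.67 ± 0.12), Rictor (1.19 ± 0.07), the core subunit of mTORC2, Ccng2 (1.84 ± 0.11), an atypical cyclin of arrested cells, and Klf6 (0.96 ± 0.07). The 5 that fell were Il7r, Ctla4, Sod2, Cdkn1a and Klf2. In CD4SP relative to CD8SP 9 rose and 0 fell in limma (2 were lower at an unadjusted p under 0.05), with Ctla4 at 1.35 ± 0.21 and Bcl6 at 0.77 ± 0.12, and 1 fell in 5 of 22 alternatives. Of all genes 7.78% were higher and 4.91% lower in that comparison.

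Regulators of FOXO proteins, 33 measured genes, had more falls than rises after the DP stage. The list holds PI3K, AKT and deacetylase genes and also ubiquitin pathway genes, binding proteins and other kinases. They act on FOXO in different ways, so the counts give no direction for FOXO activity. In CD4SP relative to DP 4 rose, 12 fell and 17 were not called, against 16.4% of all genes higher and 16.2% lower. In CD8SP relative to DP 2 rose, 18 fell and 13 were not called, against 18.2% of all genes higher and 20.9% lower. The median differences were -0.16 in CD4SP and -0.30 in CD8SP. Taking the probe set with the highest mean for each gene gave 5 and 10 that fell. That rule picks the probe set lying highest relative to DP, so it favours smaller falls by construction. Usp7, a deubiquitinase of FOXO proteins, fell by 0.96 ± 0.07 in CD4SP and 1.16 ± 0.07 in CD8SP, and Ywhae, a binding protein that holds phosphorylated FOXO in the cytoplasm, by 0.81 ± 0.09 and 0.90 ± 0.09. Skp2, a ubiquitin ligase subunit for FOXO1, fell by 1.63 ± 0.17 in CD4SP. Against the trend Pik3cd, the catalytic PI3K subunit of leukocytes, rose by 1.61 ± 0.12 in CD4SP and 1.79 ± 0.12 in CD8SP, Sgk1, a kinase that phosphorylates FOXO, by 0.91 ± 0.15 and 1.52 ± 0.15, and in CD4SP also Sgk3 and Ywhag. In DP relative to DN 14 rose and 4 fell, against 17.8% of all genes higher and 18.8% lower, with Sgk1 at 2.10 ± 0.15 and Stk4 at 0.87 ± 0.07. The 4 that fell were Ywhag, Pik3cd, Skp2 and Ywhaq.

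Of 20 listed quiescence genes, 5 of which are also on the target list, 11 rose and 3 fell in DP relative to DN. Of all genes 17.8% were higher and 18.8% lower. The cell cycle inhibitor Cdkn2d rose by 2.15 ± 0.12, and the antiproliferative genes Btg1 and Btg2 by 1.99 ± 0.17 and 1.78 ± 0.16. The 3 that fell were Ndrg1 (-2.45 ± 0.16), Bach2 (-1.10 ± 0.17) and Klf2 (-1.65 ± 0.31). In CD4SP relative to DP 6 rose and 9 fell, against 16.4% of all genes higher and 16.2% lower. In CD8SP relative to DP 5 rose and 10 fell, against 18.2% of all genes higher and 20.9% lower. Bach2, a repressor of effector programmes, rose by 3.86 ± 0.17 in CD4SP and 3.17 ± 0.17 in CD8SP, and Ndrg1, a T cell anergy factor, by 2.48 ± 0.16 and 2.09 ± 0.16, whereas Cdkn2c, a cell cycle inhibitor, fell by 1.91 ± 0.13 and 1.48 ± 0.13.

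Proliferation genes fell at the single-positive stage and fell further in CD4SP. Of 24 measured, 20 fell and 0 rose in limma in CD4SP relative to DP (median -1.42, also 0 higher at an unadjusted p under 0.05). In CD8SP relative to DP 15 fell and 1 rose (median -1.04). Of all genes 16.2% were lower and 16.4% higher in CD4SP, and 20.9% lower and 18.2% higher in CD8SP. Rrm2, a ribonucleotide reductase subunit, fell by 2.42 ± 0.15 in CD4SP and 1.58 ± 0.15 in CD8SP. The mitotic genes Aurkb and Ccnb2 fell by 2.21 ± 0.18 and 2.51 ± 0.21 in CD4SP, while Ccne1, the G1/S cyclin, rose by 0.70 ± 0.12 in CD8SP. In CD4SP relative to CD8SP 14 fell and 0 rose, again 0 at an unadjusted p under 0.05 in limma, led by the replication licensing gene Mcm6 (-1.12 ± 0.09). Of all genes 4.91% were lower and 7.78% higher in that comparison. In DP relative to DN 10 fell, led by Mcm3 (-1.07 ± 0.08), and Top2a alone rose, where 17.8% of all genes were higher and 18.8% lower. The count of 1 that rose became 0 without DN replicate 2, DN replicate 3 or any 1 of the DP replicates, and 5 with the replicate block or with the arrays numbered 1 as a factor.

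Around Foxj1, 5 of 10 listed NF-κB genes rose and 2 fell in each single-positive subset relative to DP, against 16.4% of all genes higher and 16.2% lower in CD4SP and 18.2% higher and 20.9% lower in CD8SP. Bcl3, an atypical inhibitor family member, rose by 5.47 ± 0.32 in CD4SP and 5.14 ± 0.32 in CD8SP, the subunit gene Relb by 3.87 ± 0.37 and 3.81 ± 0.37, and Rel by 1.18 ± 0.15 and 0.76 ± 0.15. Tnfaip3, a brake on the pathway, fell by 0.96 ± 0.12 in CD4SP and 1.60 ± 0.12 in CD8SP. The other that fell was Nfkbie in CD4SP (-0.72 ± 0.15) and Nfkbia in CD8SP (-0.33 ± 0.09). In DP relative to DN, where 17.8% of all genes were higher and 18.8% lower, 2 rose and 4 fell. Nfkbia, the classical inhibitor, rose by 1.56 ± 0.09 and Tnfaip3 by 1.37 ± 0.12. Those that fell were Bcl3, Nfkbib, Nfkbie and Relb. The number that fell was 1 without DN replicate 2, 2 without DN replicate 3 and 1 without DP replicate 1, and in CD8SP relative to DP it was 1 without DP replicate 3.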

How the data were processed

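Total RNA of 4 sorted thymocyte subsets was hybridised to 12 arrays, 3 per group, per the labels' protocols. The authors deposited 1 log2-like value per probe set and array (45101, of which 64 controls were left out), with 0 missing. The submitters' processing notes list MAS5 with no version or role, and the log base and genome build are not given in the sources used here. Each probe set has the DP mean subtracted (largest absolute DP mean 1.27e-06), so signal over background was lost and no dim probe set could be filtered. DN replicate 1 is rounded to 3 decimals. The number of arrays limits the precision, and no further normalization was applied (array medians -0.096 to 0.049).

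In R 4.3.3, limma 3.58.1 fitted 1 mean per group to the 12 arrays jointly and moderated the contrasts with eBayes, without a trend, over 45037 probe sets for the members and over 18193 gene means for lists and gene values. P-values are two-sided and adjusted by the Benjamini-Hochberg method over the whole table within each of 6 comparisons, and calls need an adjusted p under 0.05. The comparisons with DP share its arrays. The scripts were tested on simulated data. Members and lists were chosen with earlier results of these data known. Named genes are all members, up to 4 genes per list and comparison with the lowest adjusted p, called genes against a list's majority where 4 or fewer, and the 3 genes most like each called member. Residual correlations were 0.106 to 0.156 between arrays numbered 1, -0.025 to 0.088 between those numbered 2, 0.021 to 0.139 between those numbered 3 and -0.162 to 0.080 between differently numbered arrays. Since not every same-numbered pair was above 0.1, the numbers were not used to pair the samples in the main fit. The pairs numbered 1 all lay above every differently numbered pair. An effect shared by the arrays numbered 1 entered only as an alternative. Alternatives were other probe set rules, a variance trend, median centring, fits of the 6 arrays compared, a replicate block, a factor for arrays numbered 1 against the others, array weights, arrays left out and a threshold of 0.01. Of these, the rule of highest mean picks the probe set lying highest relative to DP, not the one with most signal.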

Additional observations from a re-analysis of the deposited data

Results flagged for a closer look

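For Foxp1 the difference between the changes from DP in CD4SP and in CD8SP was tested itself in the limma fit. It was called in the main fit but not in most alternatives. The difference CD4SP minus CD8SP was 0.335 ± 0.10 as a gene mean (adjusted p = 0.0496), 0.519 ± 0.14 on probe set 1438802_at (adjusted p = 0.0383) and 0.485 ± 0.14 on 1443258_at (adjusted p = 0.0498). All 3 lie just inside the threshold of 0.05, and their adjusted p ranged up to 0.163, 0.136 and 0.153 over the alternatives. The calls were lost in 16 of 22 alternatives for the gene mean, 12 of 20 for 1438802_at and 16 of 20 for 1443258_at. The other 6 Foxp1 probe sets had differences of 0.14 to 0.35, none called.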

How the results depend on the processing

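No call of a member changed direction under any alternative. Over the gene means of the members 738 of 792 recomputed results stayed on their side of the threshold, 47 lost a call and 7 gained one, and over their probe sets 2396 of 2520 stayed, 96 lost a call and 28 gained one. The counts of member probe sets called in the 4 comparisons other than DP minus DN and CD4SP minus CD8SP stayed within 1.5 times under all 20 alternatives. For DP minus DN, 11 calls became 7 with the arrays centred on their medians, 4 with DN replicate 1 and CD8SP replicate 1 left out together and 3 at an adjusted p under 0.01, and 4 to 11 with 1 array left out. For CD4SP minus CD8SP, 2 calls became 0 with centring, 0 with only the 6 arrays compared and 0 at the stricter threshold, 1 with the replicate block, and 0 to 3 with 1 array left out. Over all genes the 2308 calls of CD4SP minus CD8SP became 1348 with only those 6 arrays, 3578 with array weights and 1057 at the stricter threshold, and 1374 to 2789 with 1 array left out. The replicate block was set beside correlations of 0.106 to 0.156 for arrays numbered 1, as low as -0.025 for number 2 and -0.162 to 0.080 for differently numbered arrays. The causes were not tested. With levels relative to DP, no probe set can be judged for signal over background. This holds for the flat probe sets of Foxo1, Foxo4 and Foxp4 and also for the only probe set of Foxj1.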

Other observations

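Of 31 other forkhead genes measured, 7 rose and 2 fell in CD4SP relative to DP, 6 rose and 2 fell in CD8SP relative to DP, and 5 rose and 2 fell in DP relative to DN. Of all genes 16.4%, 18.2% and 17.8% were higher in these comparisons and 16.2%, 20.9% and 18.8% lower. With 1 array left out the number that rose was 3 to 8 in CD4SP and 3 to 8 in CD8SP relative to DP. In CD4SP it was 4 without DP replicate 1, 4 without DP replicate 2, 3 without CD4SP replicate 1 and 3 without CD4SP replicate 3, and in CD8SP it was 3 without DP replicate 2 and 3 without CD8SP replicate 1. The number that fell was 0 to 2 in CD4SP and 1 to 2 in CD8SP relative to DP, below 2 without any 1 of the DP arrays or of the arrays of the subset itself, among others. Foxk1, a FOXK factor of starvation and growth responses, rose by 0.79 ± 0.07 in CD4SP and by 0.83 ± 0.07 in CD8SP (limma, adjusted p = 1.02e-05 and 6.63e-06). Foxn3 rose by 0.58 ± 0.09 in CD4SP relative to DP and by 0.43 ± 0.09 in DP relative to DN. For it CD4SP exceeded CD8SP by 0.76 ± 0.09 (limma, adjusted p = 4.48e-04). It was the only one of the 31 called there, where 12.7% of all genes were called. Foxp3, the factor of regulatory T cells, rose by 0.49 ± 0.16 in CD4SP relative to DP. The 2 that fell in CD4SP were Foxj3 (-0.23 ± 0.08) and Foxm1 (-0.78 ± 0.27), which drives mitotic genes, and in CD8SP they were Foxj3 (-0.26 ± 0.08) and Foxn4 (-0.25 ± 0.09).

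One probe set annotated to both Foxo3 and Gm38485, 1444226_at, lies outside the rule for the members. It read -0.52, -0.47 and -0.35 in CD4SP and -0.41, -0.23 and -0.17 in CD8SP, against -0.04, -0.16 and 0.20 in DP and 0.07, -0.09 and -0.06 in DN. Relative to DP it fell by 0.44 ± 0.11 in CD4SP (adjusted p = 0.0131) and differed by -0.27 ± 0.11 in CD8SP (adjusted p = 0.0902), and DP minus DN was 0.03 ± 0.11.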
